A study of Mus musculus with 6 samples.

Results

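The genes described here build the moving core of the sperm tail and carry its parts into place. The 56 listed genes cover axonemal dyneins, the factors that assemble dyneins, docking and ruler proteins, radial spokes, the central pair, tektins and intraflagellar transport (IFT). They were taken by name, with earlier results of these data known. Of the 56, 49 had a probe on the array, and Spag6l was counted beside Spag6 because it once carried that symbol, which made 50 genes of 19751 that could be named, with 67 probes. Messenger RNA came from the whole testis of 3 TAp73 knockout mice (TAp73 KO) and of 3 wild type mice (TAp73 WT). All were C57BL/6J males, 10 weeks old, and each animal was read on its own Agilent array in a single colour. TAp73 names the long forms of p73, a p53 family protein encoded by Trp73, which keep the domain that activates transcription. The labels give no further detail of the knockout allele. Whole testis mixes germ cells at every stage with somatic cells, so fewer cells of a type and less RNA per cell cannot be told apart.

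The axoneme is a cylinder of microtubule doublets around a central pair. Dynein arms on each doublet walk along the next one, and radial spokes and the central pair set where and when they pull. Axonemal parts are made in the cell body, where assembly factors fold the dyneins, and IFT trains carried by kinesin-2 and returned by cytoplasmic dynein 2 move cargo along the growing tail. p73 is known as a regulator of the genes for motile cilia in airway and other multiciliated epithelia. Male germ cells switch many of the same genes on during meiosis and in spermatids, in part through RFX2 and related factors that bind a motif called the X-box.

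The start regions of the listed genes were examined for that motif, because they show what the genes share in sequence beside their names. RefSeq windows of assembly GRCm38.p6, running from 250 bases before to 50 bases after each gene's start, were found for 49 listed genes or their copies. The conserved X-box arm GTTGCC was searched on both strands. It stood in the window of 22 of the 49 genes (44.9%), against 3821 of 27025 genes with a window (14.1%). Its matches fell in 5 of 9 IFT-B genes, 5 of 7 spoke and central pair genes, 3 of 4 assembly factors 3 of 5 tektins, 2 of 3 motors, 1 of 2 IFT-A genes, 1 of 5 intermediate and light chains, 2 of 11 heavy chains and 0 of 3 docking and ruler genes. A longer form with a second arm, GTTGCCNNGNAAC or the same with 3 or 4 bases between the arms, was chosen after the sequences had been seen and contains the shorter one. It stood in the windows of 8 of the 49 genes (16.3%), against 266 of all 27025 genes (0.984%). Those 8 stretches are printed, since they hold the most complete matches, with both arms in capitals and read on the strand that gives GTTGCC.
Spag16: ggcaacgcGTTGCCgtaGTAACtgcggacg
Tekt2: cggctctgGTTGCCgaGCAACcgccccctc
Hydin: taccatctGTTGCCacaGCAACcgcagagt
Ccdc103: cagagattGTTGCCtaGCAACggcgccacc
Dnaic2: gtttaccaGTTGCCtaGCAACcctggccgg
Dnaaf2: cgtgctttGTTGCCataGTAACgcctggga
Ift57: gccctgcgGTTGCCtgGTAACggtggggac
Tekt4: ggttcctgGTTGCCtaaGGAACattgtata

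The plus strand is printed for Spag16 (chr1:69826859-69826888), Tekt2 (chr4:126325697-126325726), Dnaaf2 (chr12:69198425-69198454) and Ift57 (chr16:49699226-49699255). The minus strand is printed for Hydin (chr8:110266948-110266977), Ccdc103 (chr11:102881212-102881241), Dnaic2 (chr11:114727377-114727406) and Tekt4 (chr17:25471582-25471611). The forkhead motif GTAAACA, also searched on both strands, stood in the windows of 2 of the 49 genes, Dnah17 and Tekt3 (4.08%), against 4.05% of all genes. A pair of p53-family decamers without a mismatch stood in none of the 49, against 20 of 27025 genes (0.074%). A match is a description of letters in a window and no measured binding site.

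The files and their labels were checked before any comparison. Each array held 43020 spots beside its controls, with 74.9% to 84.7% of them well above background and saturation in 1.56% to 4.39%. The number of arrays limits the precision. The Trp73 probe A_52_P193555 gave processed signals of 17.2, 4.81 and 5.17 in the TAp73 KO testes, against 605, 548 and 587 in the TAp73 WT testes (log2 difference -6.00, SE 0.41, adjusted p = 0.0039). Of the 3 TAp73 KO arrays, only 1 had that spot well above background. Probe A_55_P1988133 of Trp73, well above background on 2 of the 3, differed by -3.21 (adjusted p = 0.00231). Probe A_52_P410636 of Trp73 was well above background on all 3 TAp73 KO arrays. Its signals were 566, 371 and 394 in TAp73 KO testes, against 1077, 974.8 and 1061 in TAp73 WT testes (log2 difference -0.98, adjusted p = 0.0113). Where the probes lie relative to the deletion is not given in the sources at hand. The labels of the authors' value table oppose those of the scanner files. Each scanner file of a knockout matched a wild type column of that table, at correlations of deviations of 0.943 to 0.978. Each wild type file matched a knockout column, at 0.831 to 0.986. All directions here follow the scanner files. Slide 1 held knockout replicates 1 and 2 and wild type replicates 1 and 3, and slide 2 held the other two arrays. Knockout replicate 1 stood apart, with a score of -66.1 on the main principal component where the other arrays scored -4.9 to 31.0.

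No listed gene passed the test in either direction. A level is the log2 processed signal minus the array's 75th percentile, and a difference is the mean level in TAp73 KO minus that in TAp73 WT testes. Each gene is represented by its brightest tested probe with a value on all 6 arrays, which left 48 measured genes. Among them 0 were called lower and 0 higher at an adjusted p under 0.05 by limma, where 2.41% of all 31801 tested probes were called lower and 0.267% higher. With unadjusted p-values under 0.05 there were 16 of the 48 higher and 0 lower, against 13.6% and 10.4% of all probes. Differences were positive for 39 genes and negative for 9. Their median was 0.18, against 0.066 over all tested probes, of which 60.9% were positive. Within slide 1 the median over the listed genes was 0.19, and the pair of arrays on slide 2 gave 0.18.

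The small positive median differed with the scaling of the arrays. The arrays' 75th percentile lay at a mean log2 signal of 12.16 in the TAp73 KO testes and 12.43 in the TAp73 WT testes, a gap of 0.27. Quantile normalization, which gives every array the same distribution of signals, brought the median over the listed genes to 0.040, beside 0.039 over all tested probes. Of 65 tested probes of these genes, 29 had all TAp73 KO arrays above all TAp73 WT arrays and 0 had them below, against 19.9% and 12.5% of all tested probes. With quantile normalization the counts were 13 above and 1 below, against 16.7% and 12.2%. Over all tested probes 767 were called lower and 85 higher with the 75th percentile, 868 and 217 with quantile normalization, and 555 and 197 with each array's median subtracted.

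**Figure D1:**
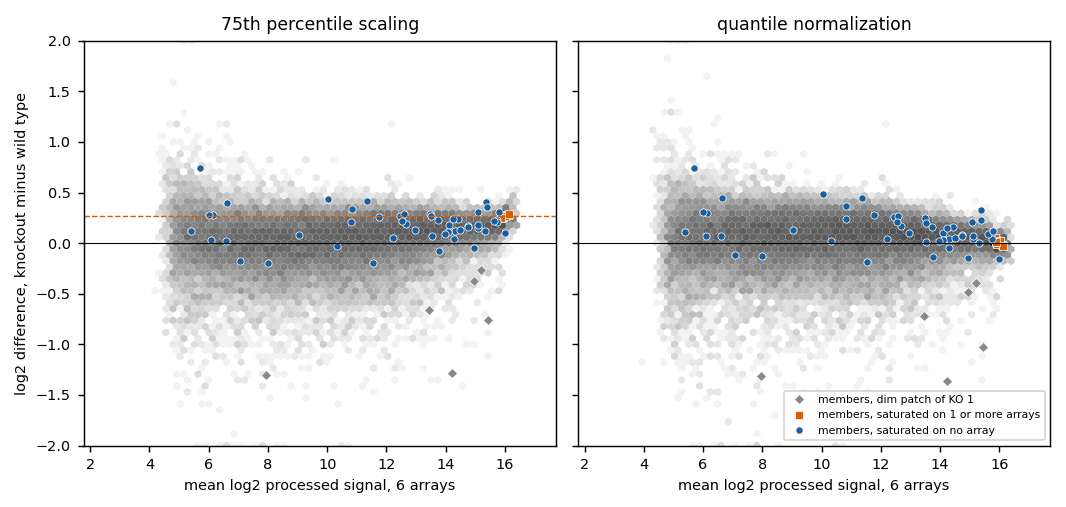
Log2 difference, TAp73 KO minus TAp73 WT (vertical axis), against mean log2 processed signal over 6 arrays (horizontal axis) for all tested probes (grey hexagons, darker for more probes) and the probes of the listed genes, under 75th percentile scaling (left) and quantile normalization (right). The dashed line marks the gap of 0.27 between the groups' 75th percentiles, on which the saturated genes (orange squares) lie at the left and from which they move to 0 at the right; grey diamonds are probes in a dim region of knockout replicate 1, and hexagons beyond 2 in size are drawn at the edge.

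The spread between replicates set how large a change could have been missed. Intervals were read for the 40 genes saturated on no array, since the other 8 have spots that give only bounds. All were read under 75th percentile scaling, so they cover the spread between replicates and not the choice of scaling. The 95% intervals from the fit lay within 1.5-fold in either direction for 29 of the 40 genes and within 2-fold for 33. For 34 genes the interval left out a fall of 1.5-fold or more. The exceptions were Dnah1, an inner arm heavy chain, whose interval ran from -0.75 to 0.70, and 5 genes whose probe lay in a dim region of 1 array. With that region set to missing, the interval left out a 1.5-fold fall for 39 of these 40 genes, all but Dnah1, and lay within 1.5-fold in either direction for 34.

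The dim region held 991 spots of knockout replicate 1, in rows 457 to 523 and columns 59 to 82 of a grid of 532 by 85. Of 750 spots there that could be compared, 72.4% read at least 1 log2 unit below the lowest of the other arrays, against 0.143% of 34152 spots elsewhere on the same array. All 6 of the listed genes' probes inside it did so, and none of those outside it. The region was drawn from these same signals, where the local median fell below the other arrays. The contrast between inside and outside therefore follows in part from its definition. Smaller dim regions on knockout replicate 2 (152 spots) and wild type replicate 1 (71 spots) held none of these probes. The 6 probes belong to Dnaic1 and Dnali1, dynein intermediate and light intermediate chains, Dnal1, an outer arm light chain, Ccdc103, which helps to fix outer arms to the doublets, and the transport proteins Ift43 and Ift80.

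**Figure D2:**
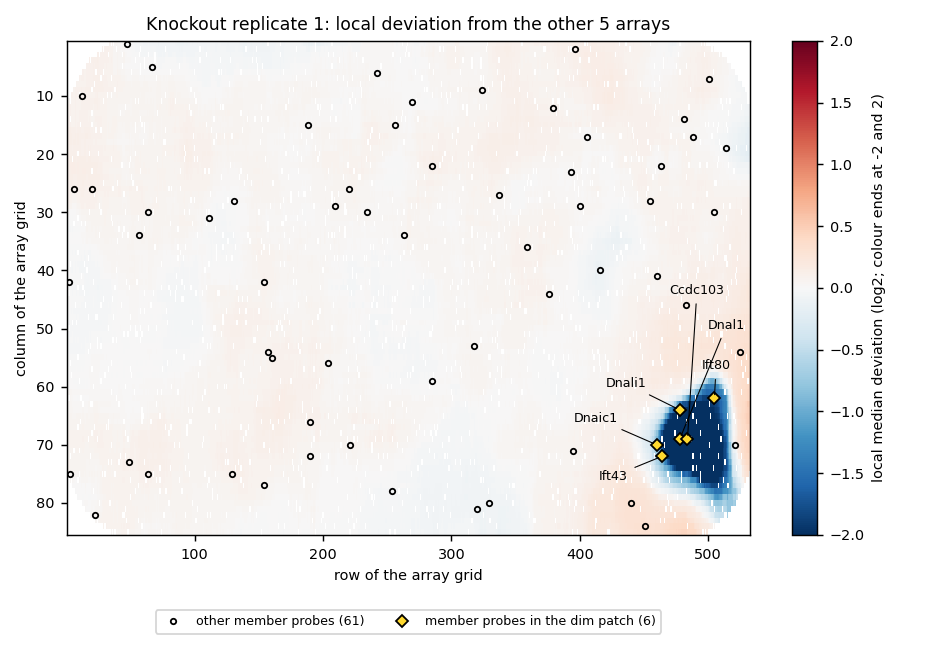
Median deviation of knockout replicate 1 from the other 5 arrays in a sliding window (colour, log2), by row (horizontal axis) and column (vertical axis) of the array grid. Yellow diamonds are the 6 probes of listed genes inside the dim region at rows 457 to 523 and columns 59 to 82, and open circles are the 61 probes outside it.

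Ccdc103 showed this most clearly, because it has 2 probes at different places. Inside the region its probe A_51_P161463 had levels of -1.65, 2.88 and 2.65 in TAp73 KO testes 1 to 3, against 2.61, 2.51 and 2.60 in TAp73 WT testes 1 to 3 (difference -1.28, SE 1.18, adjusted p = 0.516). Its probe A_55_P2046288, at row 440 and column 80, had levels of -0.47, -0.78 and -0.94 in the TAp73 KO testes, against -1.02, -1.18 and -1.25 in the TAp73 WT testes (difference 0.42, SE 0.14, adjusted p = 0.152). On the outside probe every TAp73 KO array was above every TAp73 WT array, while on the inside probe knockout replicate 1 alone was low.

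The other genes in the region were low on the same array. Ift43, a subunit of the IFT-A complex that serves return transport, had levels of 0.67, 3.95 and 3.67 in TAp73 KO testes, against 3.52, 3.53 and 3.52 in TAp73 WT testes. Dnal1 had levels of -7.75, -3.40 and -3.84 in TAp73 KO testes, against -3.85, -3.73 and -3.51 in TAp73 WT testes. In each, replicates 2 and 3 of the knockout lay near or above the wild type and replicate 1 far below it. Dnaic1 had levels of 1.47, 3.00 and 2.92 in TAp73 KO testes, against 3.03, 2.81 and 2.66 in TAp73 WT testes. Dnali1 had levels of 1.78, 3.32 and 3.23 in TAp73 KO testes, against 3.21, 2.90 and 3.03 in TAp73 WT testes. With the region set to missing and 2 knockout arrays left, the differences became 0.29 for Ift43 (it was -0.76), 0.074 for Dnal1 (-1.30), 0.12 for Dnaic1 (-0.37), 0.23 for Dnali1 (-0.27) and 0.19 for the inside probe of Ccdc103. Ift80, an IFT-B subunit, had levels of -0.039 and 1.68 in TAp73 KO replicates 1 and 2, against 1.46 and 1.51 in TAp73 WT replicates 2 and 3. The software had marked its other 2 spots as outliers, so Ift80 has no representative value.

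**Figure D3:**
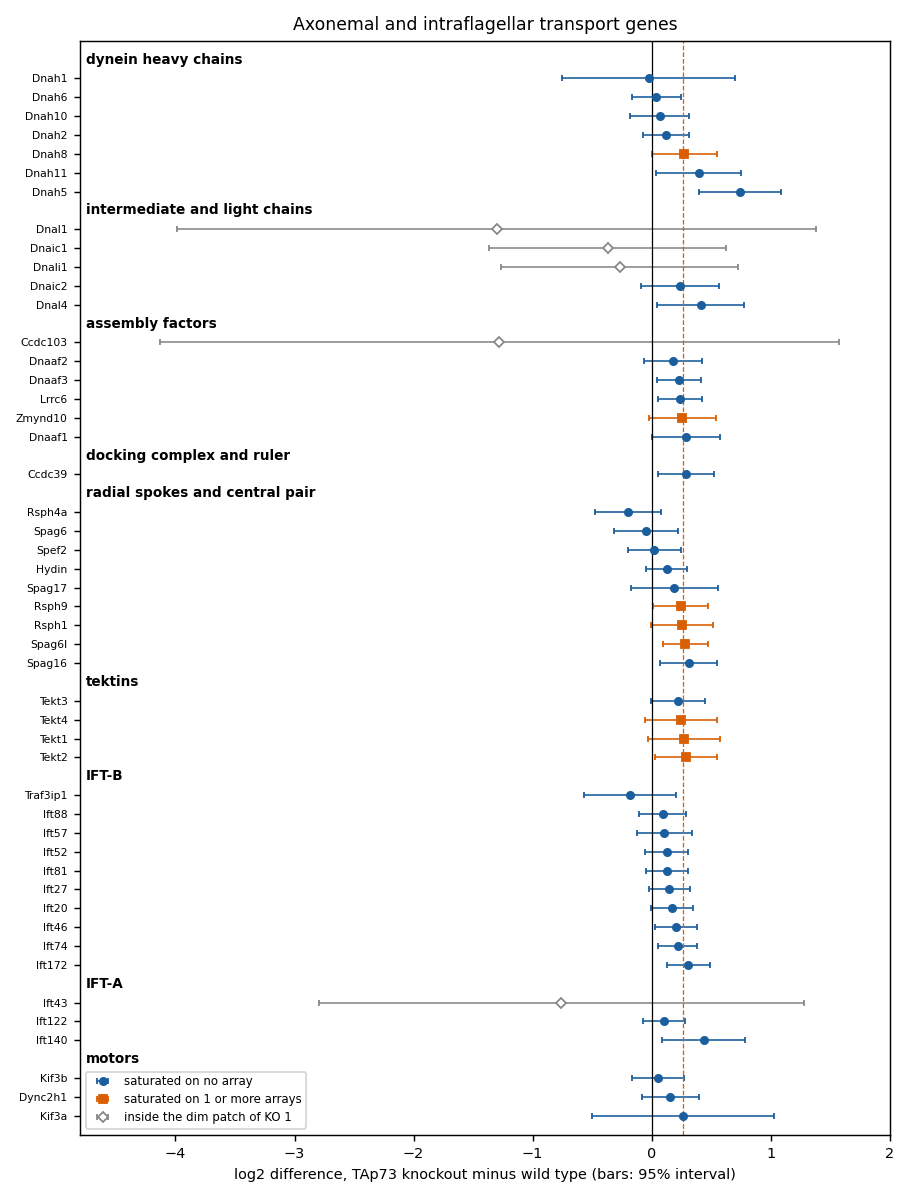
Log2 difference, TAp73 KO minus TAp73 WT (horizontal axis), with its 95% interval for the 48 measured genes, grouped by role and ordered by difference. Orange squares are genes with a saturated spot on at least 1 array, which cluster at the dashed line (0.27, the gap between the groups' 75th percentiles); the wide grey intervals belong to the 5 genes in the dim region of knockout replicate 1.

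Among the dynein heavy chains, the motors of the arms, 7 of the 12 listed genes were measured, none was called, and the median difference was 0.12. Dnah3, Dnah7a, Dnah12 and Dnah17 had no matched probe. Dnah5, an outer arm heavy chain best known from airway cilia, was the listed gene with the smallest adjusted p. It was dim, with processed signals of 78.6, 54.8 and 54.5 in TAp73 KO testes, against 39.7, 42.5 and 51.9 in TAp73 WT testes, and was well above background on 5 of the 6 arrays. Every TAp73 KO array was above every TAp73 WT array. Scaled, the levels were -6.05, -6.24 and -6.35 in TAp73 KO testes, against -7.19, -6.96 and -6.72 in TAp73 WT testes (difference 0.74, SE 0.14, 95% interval 0.40 to 1.09, adjusted p = 0.056).

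Whether Dnah5 passed the threshold depended on the setting. It was called higher with quantile normalization (adjusted p = 0.028, where 0.682% of probes were called higher), with each array's median subtracted (0.049, where 0.619% were), with dim regions set to missing (0.0436, where 0.397% were), and with both dim regions missing and quantile normalization (0.0195, where 0.753% were). It was not called with slide as a block (adjusted p = 0.109), replicate number as a block (0.188), within slide 1 (0.406) or with any array left out. Nor was it called without the background filter (adjusted p = 0.111). With normexp, another background correction, the difference was 1.08 (adjusted p = 0.481). With normexp and quantile normalization it was 0.25 (adjusted p = 0.137). In the authors' value table under its own labels, the opposite ones, it was the only listed gene called lower, at -0.74 (adjusted p = 0.0289, where 0.679% of probes were called lower). Dnah9, another outer arm heavy chain of motile cilia, was well above background on 1 array and was not tested. Its levels were -7.78, -7.86 and -7.76 in TAp73 KO testes, against -8.62, -8.60 and -8.43 in TAp73 WT testes. Without the background filter Dnah9 was called higher (adjusted p = 0.0371, where 0.0304% of probes were), at signals of 17.8 to 23.7 in TAp73 KO testes and 13.6 to 15.8 in TAp73 WT testes.

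Dnah11, an outer arm heavy chain of airway and nodal cilia, had levels of -5.50, -5.31 and -5.59 in TAp73 KO testes, against -5.82, -5.64 and -6.14 in TAp73 WT testes (difference 0.40, SE 0.15, adjusted p = 0.185). Its groups did not overlap. Dnah8, the outer arm heavy chain of the sperm tail, had a saturated main probe and 2 dimmer ones, and their differences were 0.27, 0.27 and 0.34. The dimmest of the 3 had levels of -1.36, -1.26 and -1.29 in TAp73 KO testes, against -1.58, -1.57 and -1.77 in TAp73 WT testes (adjusted p = 0.0968). The inner arm heavy chains Dnah1, Dnah2, Dnah6 and Dnah10 differed by -0.024 to 0.12 on their main probes. Dimmer probes of Dnah10 differed by 0.12 and 0.27.

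All 5 intermediate and light chains were measured, and 3 of them lay in the dim region. Outside it, Dnal4, a dynein light chain, had levels of 3.54, 3.30 and 3.02 in TAp73 KO testes, against 2.88, 2.73 and 3.02 in TAp73 WT testes (difference 0.41, SE 0.15, adjusted p = 0.179). Its second probe differed by 0.23. The groups of the main probe did not overlap, though knockout replicate 3 and wild type replicate 3 were nearly equal. Dnaic2, an outer arm intermediate chain, had levels of 2.48, 2.11 and 2.15 in TAp73 KO testes, against 2.19, 1.88 and 1.95 in TAp73 WT testes, and the groups overlapped (difference 0.24, SE 0.14, adjusted p = 0.306).

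The assembly factors fold and join dynein arms in the cell body before they enter the tail. All 6 were measured, none was called, and their median difference was 0.23. Lrrc6 had levels of 2.14, 2.07 and 1.98 in TAp73 KO testes, against 1.79, 1.88 and 1.80 in TAp73 WT testes (difference 0.24, SE 0.08, adjusted p = 0.150). Dnaaf3 had levels of 3.45, 3.60 and 3.59 in TAp73 KO testes, against 3.28, 3.37 and 3.31 in TAp73 WT testes (difference 0.23, SE 0.08, adjusted p = 0.161). In both, all TAp73 KO arrays were above all TAp73 WT arrays. Under quantile normalization the differences were 0.15 and 0.081. Dnaaf1 and Dnaaf2 differed by 0.29 and 0.18.

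Of the docking complex and the ruler that spaces the arms along the doublet, Ccdc39 alone had a probe, and Ccdc40 and Ccdc114 had none matched. Ccdc39, which forms the ruler with Ccdc40, had levels of 1.35, 1.24 and 1.39 in TAp73 KO testes, against 0.90, 1.19 and 1.02 in TAp73 WT testes (difference 0.29, SE 0.10, adjusted p = 0.158). The groups did not overlap.

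The radial spoke and central pair genes gave 9 measured genes, none called, with a median of 0.19. Spag16, a central pair protein, had levels of 2.89, 2.98 and 3.00 in TAp73 KO testes, against 2.52, 2.59 and 2.81 in TAp73 WT testes (difference 0.31, SE 0.10, adjusted p = 0.144). Its second, dimmer probe gave 0.26, and on both probes the groups did not overlap. Spag6l, a central pair protein needed for sperm motility in mice, had levels of 3.63, 3.75 and 3.73 in TAp73 KO testes, against 3.44, 3.34 and 3.49 in TAp73 WT testes (difference 0.28, SE 0.08, adjusted p = 0.114). The groups did not overlap. Its spot was saturated on 1 array, and quantile normalization gave 0.047. Spag6, a close copy of it, differed by -0.047, and by -0.076 on a second probe. Whether the probes tell the copies apart was not tested. Rsph4a, a spoke head protein known from airway cilia, differed by -0.20, its second probe not being well above background often enough to be tested. Hydin, Spag17 and Spef2, all of the central pair apparatus, differed by 0.12, 0.19 and 0.022. Second, dimmer probes of Hydin and Spag17 differed by 0.078 and 0.28.

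Tektins are filament proteins that run along the doublets, and 4 of the 5 listed were measured, with no matched probe for Tekt5. Tekt3 was the tektin saturated on no array. It had levels of 0.45, 0.34 and 0.25 in TAp73 KO testes, against 0.24, 0.10 and 0.035 in TAp73 WT testes (difference 0.22, SE 0.09, adjusted p = 0.213). The lowest TAp73 KO array and the highest TAp73 WT array were nearly equal. Tekt2 had levels of 4.03, 4.12 and 3.78 in TAp73 KO testes, against 3.64, 3.64 and 3.79 in TAp73 WT testes (difference 0.29, SE 0.11, adjusted p = 0.187). The groups overlapped, and quantile normalization turned Tekt2 to -0.025.

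Saturated genes were kept apart, because a spot at the scanner's limit gives only a bound. For 8 of the 48 genes the representative probe was saturated on at least 1 array and for none on all 6: Dnah8, Zmynd10, Rsph1, Rsph9, Spag6l, Tekt1, Tekt2 and Tekt4. Their differences ran from 0.25 to 0.29, a range that includes the gap of 0.27 between the groups' 75th percentiles. Tekt4, for example, had processed signals of 57498, 59265 and 61990 in TAp73 KO testes, against 58271, 60629 and 62399 in TAp73 WT testes, which overlap, and a scaled difference of 0.25. Spag6l and Tekt2 were saturated on 1 array each. With the saturated spots missing they differed by 0.32 and 0.34, and neither was called. Quantile normalization brought the median of the 8 to 0.0094. Over all probes the same held: the 1907 tested probes with a saturated spot had a median of 0.25, against 0.051 for the rest. The 40 listed genes saturated on no array had a median of 0.14, or 0.059 with quantile normalization. Zmynd10, an assembly factor, and Rsph1 and Rsph9, spoke head proteins, are known here only through such probes, apart from a second probe of Rsph1 that was saturated on no array and differed by 0.36 (adjusted p = 0.150).

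**Figure D4:**
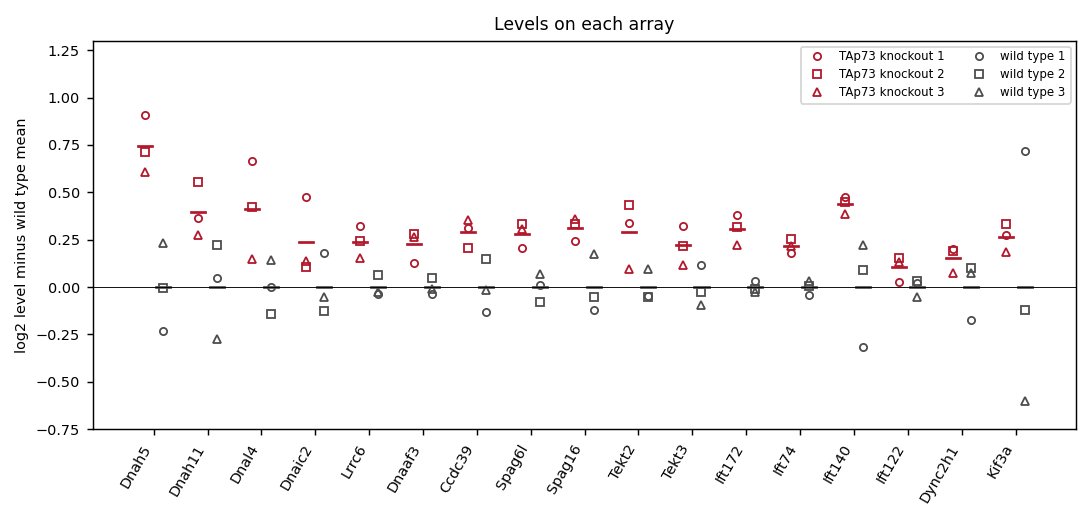
Log2 level on each array minus the mean of the 3 TAp73 WT arrays (vertical axis) for the genes with the smallest p in each role (horizontal axis), with TAp73 KO in red at the left of each pair, TAp73 WT in grey, symbols for replicates 1 to 3 and bars for group means. Most TAp73 KO means lie between 0.1 and 0.45 above the TAp73 WT mean, with Dnah5 at 0.74 and Kif3a spread widest among its TAp73 WT arrays.

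The IFT-B complex drives outward transport along the tail, and 10 of its 11 listed genes were measured, with a median of 0.14 and no call. Ift172, the largest subunit, had levels of 3.73, 3.67 and 3.57 in TAp73 KO testes, against 3.39, 3.34 and 3.33 in TAp73 WT testes (difference 0.31, SE 0.07, 95% interval 0.13 to 0.49, adjusted p = 0.0894). Ift74, a core subunit, had levels of 3.40, 3.47 and 3.43 in TAp73 KO testes, against 3.17, 3.22 and 3.25 in TAp73 WT testes (difference 0.22, SE 0.07, adjusted p = 0.139). Every TAp73 KO array was above every TAp73 WT array for each gene, and quantile normalization gave 0.12 and 0.091. Ift20, Ift27, Ift46, Ift52, Ift57, Ift81 and Ift88 differed by 0.093 to 0.21 on their main probes. A second, dim probe of Ift46 differed by 0.027. Traf3ip1, another IFT-B subunit, differed by -0.18.

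The IFT-A complex serves return transport. Ift140, one of its core subunits, had levels of -2.002, -2.03 and -2.09 in TAp73 KO testes, against -2.79, -2.39 and -2.26 in TAp73 WT testes (difference 0.44, SE 0.14, adjusted p = 0.156). The TAp73 KO arrays lay close together and above all TAp73 WT arrays, and quantile normalization gave 0.49. Ift122, another core subunit, had levels of 3.68, 3.80 and 3.78 in TAp73 KO testes, against 3.67, 3.68 and 3.60 in TAp73 WT testes, with overlap (difference 0.11, SE 0.07, adjusted p = 0.395). Quantile normalization turned this brighter Ift122 probe to -0.16. The second, dimmer Ift122 probe differed by 0.18 (adjusted p = 0.196), with every TAp73 KO array above every TAp73 WT array. Quantile normalization gave 0.069 for that second probe.

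The motors of these trains were measured in full. Dync2h1, the heavy chain of cytoplasmic dynein 2, had levels of 2.57, 2.56 and 2.45 in TAp73 KO testes, against 2.20, 2.47 and 2.44 in TAp73 WT testes (difference 0.16, SE 0.10, adjusted p = 0.358), with overlap. Kif3a, a kinesin-2 subunit, had levels of 1.36, 1.42 and 1.27 in TAp73 KO testes, against 1.81, 0.97 and 0.49 in TAp73 WT testes (difference 0.26, SE 0.32, adjusted p = 0.620). Its second probe had levels of -0.96, -0.86 and -0.72 in TAp73 KO testes, against -0.81, -0.45 and -0.69 in TAp73 WT testes, a difference of -0.19. The probes of Kif3a differed in sign, and on both the groups overlapped. Kif3b, its partner, differed by 0.051, and by 0.21 on its second, dimmer probe.

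Genes of the same pathways outside the list gave medians of 0.12 to 0.25 under 75th percentile scaling, beside 0.18 for the listed genes. Among 60 further axonemal genes measured, 0 were called in either direction, while unadjusted p-values under 0.05 were found for 21 higher and 1 lower, against 13.6% and 10.4% of all probes, and the median difference was 0.21, or 0.036 with quantile normalization. Of these 60 genes 18 had a saturated spot, and the median over the other 42 was 0.17. The closest to the threshold was Dnaaf4, another dynein assembly factor, with levels of 0.0017, -0.20 and -0.21 in TAp73 KO testes, against -0.70, -0.55 and -0.60 in TAp73 WT testes (difference 0.48, SE 0.09, adjusted p = 0.0536). Further IFT genes (20 measured, median 0.12), the BBSome, a cargo adaptor of these trains (12 measured, 0.18), and the outer structures of the sperm tail (21 measured, 0.25, 15 of them with a saturated spot) held no call by limma. Unadjusted, they held 4, 2 and 9 genes higher and 1, 0 and 0 lower. Of 19 regulators of ciliogenesis 1 was called, Myb, a transcription factor of meiosis and of multiciliated cells, which was higher (difference 1.23, SE 0.22, adjusted p = 0.0498, where 0.267% of all probes were called higher) and dim, with levels of -5.78, -6.27 and -6.23 in TAp73 KO testes, against -7.75, -7.08 and -7.13 in TAp73 WT testes. Myb was no longer called with slide as a block (adjusted p = 0.105) or with any 1 array left out, each of the 6 in turn (adjusted p = 0.0701 to 0.135). Nor was it called within slide 1 (0.370), with replicate number as a block (0.181), without the background filter (0.102) or with normexp (0.481). With normexp and quantile normalization its difference was 0.40 (adjusted p = 0.158). It stayed called with quantile normalization (0.0228), median scaling (0.0473) and dim regions missing (0.0376). The median of the ciliogenesis regulators was 0.15.

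Markers of the cells that make the tail also showed positive median shifts under 75th percentile scaling. No marker of spermatocytes (26 measured), round spermatids (20) or elongating spermatids (19) was called by limma, while 7, 6 and 5 of them were higher and none was lower by the unadjusted p, against 13.6% and 10.4% of all probes, and their median differences were 0.23, 0.25 and 0.27. Summed levels of the round spermatid markers, in multiples of the array's 75th percentile, were 199 to 243 in TAp73 KO testes and 182 to 196 in TAp73 WT testes, with 12 of 20 markers saturated on at least 1 array, so that these sums are bounds. Over the 8 saturated on no array they were 50.9 to 58.1 in TAp73 KO testes and 47.0 to 49.3 in TAp73 WT testes. Those of elongating spermatids were 231 to 300.0 in TAp73 KO testes and 215 to 235 in TAp73 WT testes, with 18 of 19 markers saturated on at least 1 array. Of the 26 spermatocyte markers, 10 were saturated on at least 1 array. Over markers saturated on no array the medians were 0.14 for spermatocytes (16 markers), 0.22 for round spermatids (8) and 0.35 for elongating spermatids (1). Over the listed genes saturated on no array the median was 0.14. With quantile normalization the medians of the 3 whole marker lists were 0.080, 0.017 and 0.012. The part of these lists in the values of the listed genes was not tested. Spermatogonia, the germ cells before meiosis, went the other way: 18 markers were measured, with a median difference of -0.079, or -0.11 with quantile normalization. Limma called 0 of the 18 in either direction. By the unadjusted p 3 were higher and 1 lower, against 13.6% and 10.4% of all probes. Of the somatic lists, 3 of 21 Sertoli cell markers were called lower (median difference -0.31), 3 of 13 for Leydig cells (-0.22), 5 of 17 for macrophages (-0.42), 2 of 13 for endothelial cells (-0.13) and 1 of 10 for peritubular myoid cells (0.0051), against 2.41% of all tested probes. None of these somatic markers was called higher. By the unadjusted p, in the same order, 0, 2, 0, 1 and 2 were higher. Lower were 13, 4, 10, 3 and 1, against 13.6% of all probes higher and 10.4% lower. Quantile normalization gave medians of -0.40, -0.20, -0.38, -0.073 and 0.0069. The 4 Sertoli cell markers with a saturated spot had a median of 0.26, and the other 17 had -0.42.

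Ciliated cells other than sperm were looked for as well, since efferent ducts lie beside the testis. For comparison, limma called 0.267% of all tested probes higher and 2.41% lower, and 13.6% and 10.4% had an unadjusted p under 0.05. Of 15 listed markers of multiciliated cells 9 were measured, 0 were called by limma (1 higher and 1 lower unadjusted), and their median was 0.13, while Cdhr3, Sntn and Tmem212 were not well above background on any array. Summed levels of that list were 60.6 to 76.6 in TAp73 KO testes and 60.4 to 63.6 in TAp73 WT testes, with 4 of the 9 saturated on at least 1 array. Over the other 5 they were 12.8 to 14.5 in TAp73 KO testes and 13.1 to 13.7 in TAp73 WT testes. Of the epididymis and efferent duct markers 12 were measured and 0 called (1 higher and 0 lower unadjusted), and 8 others, Lcn5, Lcn8 and Lcn9 among them, were not well above background on any array. Their summed levels were 36.1 to 44.4 in TAp73 KO testes and 32.5 to 37.0 in TAp73 WT testes, with 3 of the 12 saturated on at least 1 array. Over the other 9 they were 0.666 to 0.825 in TAp73 KO testes and 0.685 to 0.753 in TAp73 WT testes, and the 3 saturated markers made up 97.8% to 98.5% of the whole sum on each array.

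The listed genes with and without the promoter motif had similar differences. Among genes with a window, the median difference was 0.18 over the 21 measured ones that held GTTGCC and 0.19 over the 21 that did not. For the 8 with the longer form printed above it was 0.21, and 0.18 for the other 34. With quantile normalization the medians were 0.040 with GTTGCC and 0.043 without, and 0.038 with the longer form and 0.042 without.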

How the data were processed

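The authors' deposited scanner files come from Feature Extraction 10.7.3.1, per the file headers, and the values used are its background-subtracted spot intensity in 1 colour. The authors also deposited a value table of intensity, its columns brought to nearly 1 distribution by a step whose details were not stated. The submitters' processing notes name limma.

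From these, log2 signals were averaged over a probe's spots, without control spots and the 163 to 280 spots per array that the software marked as outliers, and the 75th percentile of the array's spots was taken off. Probes well above background on at least 3 of 6 arrays, with at least 2 values per group, were tested across all probes in a fit of group alone (limma 3.58.1, lmFit with eBayes, under R 4.3.3, two-sided), with Benjamini-Hochberg adjustment over 31801 probes and an adjusted p under 0.05 as threshold. The fit was tested on simulated data. Accessions matched to RefSeq symbols named 26055 of 39429 probes.

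The members and lists were chosen with earlier results of these data known. Values on every array are given for called members, the 2 members with the smallest p per role, and members whose probes differ in sign or by over 0.5, and members without a tested probe are named. From each other list at most 2 genes with the smallest p are named. The genes in the dim region, Dnah8, Dnah9 and Tekt4 were chosen for full values after these were seen.

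Alternatives were quantile normalization, median scaling, normexp with an offset of 50 (on the median spot signal, as no mean spot signal was at hand), other filters, other choices of a gene's probe, saturated spots missing, slide or replicate number as a block, slide 1 alone, the value table, and each array left out. Chosen after seeing the data were dim regions set to missing (a local median, over 12 rows and 4 columns to each side, more than 0.5 log2 units below the other arrays), that with quantile normalization, the 75th percentile over probes, and saturated probes left out. Same-numbered arrays did not deviate together (correlations -0.025, -0.082 and -0.09), and the labels state no pairing. So few arrays cannot exclude a pairing, and the main fit used none.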

Additional observations from a re-analysis of the deposited data

How the results depend on the processing

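The count of 0 listed genes called lower held under every alternative run except the authors' value table under its own labels, where it was 1 (Dnah5). The count called higher was 1 with quantile normalization, median scaling, dim regions missing, and dim regions missing with quantile normalization (Dnah5 each time), and 1 without the background filter (Dnah9); leaving out any array gave 0 in both directions. At an unadjusted p under 0.05 by limma, 0 of the 65 probes were lower in the main fit or in any alternative run on the scanner files. Of all tested probes 10.4% were lower in the main fit, and 769 to 3566 probes across these runs. Higher by the same rule were 23 of the 65 in the main fit, against 13.6% of all tested probes. That count was 8 with quantile normalization, 3 with normexp and 32 with median scaling, against 3812, 1248 and 8121 of 31801 probes. The median difference over all measured genes, 0.18, was 0.040 with quantile normalization, 0.25 with median scaling, 0.047 with normexp and quantile normalization, 0.15 with saturated spots missing, saturated probes left out or the brightest unsaturated probe, 0.16 with the mean of a gene's probes, 0.21 with dim regions missing, 0.040 with dim regions missing and quantile normalization, -0.038 in the value table, and 0.18 to 0.20 with an array left out. Over genes saturated on no array, 0.14, it was 0.059 with quantile normalization, 0.20 with median scaling, 0.16 with normexp, 0.0615 with normexp and quantile normalization, 0.18 with dim regions missing, 0.073 with these and quantile normalization, -0.056 in the value table, and 0.13 to 0.16 with an array left out. Over saturated genes, 0.26, it was 0.0094 with quantile normalization, 0.00 with normexp and quantile normalization, 0.0073 with dim regions missing and quantile normalization, and -0.0094 in the value table. Normexp moved the median of all tested probes to 0.23 and left 0 probes called lower and 0 higher by limma, with 769 and 1248 at an unadjusted p under 0.05. Trp73 was -6.00 in the main fit. It was -1.84 with normexp (adjusted p = 0.481), -2.44 with normexp and quantile normalization (0.0028), -5.76 within slide 1 (0.190), 6.01 in the value table, whose labels are opposite, and -6.50 to -5.75 with an array left out. With replicate number as a block it was -6.00 (adjusted p = 0.0711), and the block left 9 probes lower and 1 higher of all tested, none of a listed gene. Dnah5 was -0.74 in the value table. The causes of these changes were not tested. Dim probes such as Dnah5 and Dnah9 sit close to background, and saturated ones give bounds only.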
